A study of Drosophila melanogaster with 3 samples.

Results

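CG3919-eGFP peaks were examined at 8 genes of the Trithorax group and the Brahma complex, brm, osa, mor, Snr1, trx, ash1, ash2 and kis, among 13945 protein-coding genes on the main chromosome arms of Drosophila melanogaster. A peak belonged to a gene when its summit lay inside the gene or within 2 kb upstream of any of its transcription start sites (TSSs), in the Ensembl annotation on the dm6 build. By this rule 26 of the 9569 reproducible peaks (0.272%) belonged to the 8 genes. They fell at 5 genes: osa and kis had 9 each, trx had 5, mor had 2 and brm had 1, while Snr1, ash1 and ash2 had 0.

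The samples were 3 biological replicates of 1 group: whole prepupae, males and females together and of unknown age, from 1 transgenic line that stably carries CG3919 fused at its C terminus to green fluorescent protein. RefSeq lists CG3919 as an uncharacterized protein. Chromatin was immunoprecipitated with an antibody against GFP, and each replicate gave 30000 candidate regions, which hold peaks and background together, against 1 shared control file. What drives the fusion gene, and whether the replicates came from separate matings, is not given in the sources used here, and no untagged line was analysed here. A whole animal mixes tissues, so binding in few cells and weak binding in many cannot be told apart. With 1 group there was no second condition to test against, and the values below are descriptions set beside the same values over all peaks or all genes. Read depth is unknown from peak lists. Rank 1 is the strongest region of a list by the authors' signal, and the rank in a replicate is that of its strongest candidate overlapping the peak by 1 bp or more.

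Trithorax group proteins keep Hox and other developmental genes active once they have been switched on, and Polycomb group proteins hold such genes silent. Brahma (brm) is the ATPase of the fly SWI/SNF remodelling complexes, which slide and evict nucleosomes, and these complexes occur as a BAP form, which holds Osa, and a PBAP form, which does not. Trx and Ash1 are histone methyltransferases, of histone H3 lysine 4 and lysine 36, Ash2 is a shared subunit of the complexes that methylate lysine 4, and Kismet (kis) is a chromodomain ATPase of the CHD family.

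The sequences under the peaks that the results turn on are shown first, as 201 bases of the plus strand centred on the summit, from the RefSeq genome of the dm6 assembly. Capitals mark matches on either strand to the short motifs described further on, and a window in lower case throughout holds none of them. The strongest peak of each of the 5 bound genes is shown: chr3L:15982912-15983112 for brm, chr3R:17704313-17704513 for osa, chr3R:15974316-15974516 for mor, chr3R:14283795-14283995 for trx and chr2L:223460-223660 for kis.
brm, rank 201: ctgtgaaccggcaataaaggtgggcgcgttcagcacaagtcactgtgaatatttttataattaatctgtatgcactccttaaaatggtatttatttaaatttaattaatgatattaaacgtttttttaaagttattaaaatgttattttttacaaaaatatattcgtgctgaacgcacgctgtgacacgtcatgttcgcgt
osa, rank 8: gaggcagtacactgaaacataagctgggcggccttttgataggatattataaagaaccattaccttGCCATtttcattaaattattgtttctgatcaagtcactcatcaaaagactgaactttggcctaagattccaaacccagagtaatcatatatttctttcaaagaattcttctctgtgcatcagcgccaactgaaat
mor, rank 1633: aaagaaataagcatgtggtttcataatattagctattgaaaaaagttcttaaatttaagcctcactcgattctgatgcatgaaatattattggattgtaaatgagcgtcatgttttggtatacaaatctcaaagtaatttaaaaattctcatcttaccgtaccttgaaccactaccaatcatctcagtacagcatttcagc
trx, rank 141: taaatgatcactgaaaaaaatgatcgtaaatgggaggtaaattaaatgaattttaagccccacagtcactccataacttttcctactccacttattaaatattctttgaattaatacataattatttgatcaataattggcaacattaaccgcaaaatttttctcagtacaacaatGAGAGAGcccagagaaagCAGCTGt
kis, rank 331: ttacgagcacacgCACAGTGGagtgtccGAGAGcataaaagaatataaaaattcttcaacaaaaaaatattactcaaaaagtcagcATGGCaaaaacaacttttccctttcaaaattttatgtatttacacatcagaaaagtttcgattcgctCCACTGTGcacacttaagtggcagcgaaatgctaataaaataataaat

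The windows at the osa TSS (chr3R:17718287-17718487) and at the next strongest kis peak (chr2L:224849-225049) were added after their values were seen, because they carry a cluster of CGATA matches and a CACAGTGG match that the results return to.
osa, rank 7639: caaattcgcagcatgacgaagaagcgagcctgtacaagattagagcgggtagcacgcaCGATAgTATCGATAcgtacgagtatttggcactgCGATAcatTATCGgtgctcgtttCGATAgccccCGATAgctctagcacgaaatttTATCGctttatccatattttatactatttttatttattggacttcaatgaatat
kis, rank 760: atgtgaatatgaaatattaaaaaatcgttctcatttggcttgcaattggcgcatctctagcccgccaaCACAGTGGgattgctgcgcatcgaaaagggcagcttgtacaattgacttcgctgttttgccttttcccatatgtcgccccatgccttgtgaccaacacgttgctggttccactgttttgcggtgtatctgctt

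At brm (FBgn0000212, 3L, 15970082 to 15982869, minus strand), the ATPase gene, the only peak lay at the promoter. It spanned 15982804 to 15983198 with its summit 143 bp upstream of a brm TSS, and it ranked 201 of 9569. The ranks were 142, 457 and 151 in replicates 1, 2 and 3, a mean of 250 ± 179 (SD, n = 3), so replicate 2 placed it lowest and all replicates kept it far up the list. The promoter is shared: the summit was 123 bp from the TSS of Arl1, a small GTPase gene transcribed the other way, which makes Arl1 the nearer gene. No peak lay inside the 12788 bp of the brm gene itself, and 0 further regions of the pooled candidate list did.

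The osa gene (FBgn0261885, 3R, 17687818 to 17718350, minus strand), which encodes the ARID subunit that defines BAP, held 9 peaks, 8 of them in introns in all 6 annotated transcripts. The strongest ranked 8 of 9569, at 17704187 to 17704639, 13937 bp downstream of the TSS in intron 4, which is 8067 bp long. Its ranks were 8, 7 and 9 in the 3 replicates, 8.0 ± 1.0 (SD, n = 3), the highest and, in absolute rank, the least variable of the 26. The summit fell at the same time in an exon of lncRNA:CR46035, a non-coding gene on the opposite strand inside this intron, 718 bp from that gene's TSS.

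Intron 4 held 4 more osa peaks, 2 of them strong and near starts of non-coding genes. The peak of rank 238, at 17703215 to 17703702, had ranks of 302, 267 and 172 (247 ± 67.3) and its summit was 248 bp from the TSS of lncRNA:CR46035. Further downstream, that of rank 414, at 17700357 to 17700806, had ranks of 433, 646 and 286 (455 ± 181) and its summit was 150 bp from the TSS of lncRNA:CR46036. These 3 strong intronic peaks lay within 5 kb of each other, and a peak of rank 4842 (3665, 8683 and 3619 in the replicates) and one of rank 9416 (8541, 8659 and 11182) lay between them. By nearest summit, the replicate 2 candidate at the peak of rank 4842 ranked 25358.

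The promoter of osa carried only a weak peak. The TSS peak, with its summit 37 bp upstream, ranked 7639, with 6279, 9326 and 9448 in the replicates (8351 ± 1800, SD, n = 3), in the weaker part of the reproducible list. In intron 1, 1167 bp downstream, a peak of rank 5555 had ranks of 9447, 4197 and 3896 (5847 ± 3120), so replicate 1 placed it far lower than the other 2. Intron 2, of 7504 bp, held peaks of rank 8835 and 8950 that overlapped by 176 bp, with summits 260 bp apart. The strongest candidate over both was the same region in each replicate (8991, 9102 and 8020). By nearest summit the replicates gave each its own candidate, of rank 8991, 12700 and 8020 for the first and 9498, 9102 and 10115 for the second.

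The mor gene (FBgn0002783, 3R, 15968134 to 15972913, minus strand) encodes the scaffold subunit of both Brahma complexes, and its 2 peaks lay upstream of it, inside the neighbouring gene Hel89B. The peak of rank 1633, at 15974289 to 15974562, was 1503 bp upstream of the mor TSS in an intron of Hel89B and had nearly equal ranks of 1682, 1710 and 1708 (1700 ± 15.6, SD, n = 3). A weaker one of rank 9243, at 15973520 to 15973955, was 825 bp upstream of mor and 440 bp from the TSS of Hel89B. It ranked 4174 in replicate 1, but 13849 and 12233 in replicates 2 and 3, past the 9569 strongest candidates. At Snr1 (FBgn0011715, 3R, 5470926 to 5472754, plus strand), the gene of the SNF5 subunit, the window held 0 peaks and 0 candidate regions in any list. Just outside it, 1818 bp beyond the window, a peak of rank 1679 lay 7 bp from the TSS of the ribosomal protein gene RpL35A; it ranked 1720 and 1357 in replicates 2 and 3 and had no candidate in replicate 1.

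**Figure D1:**
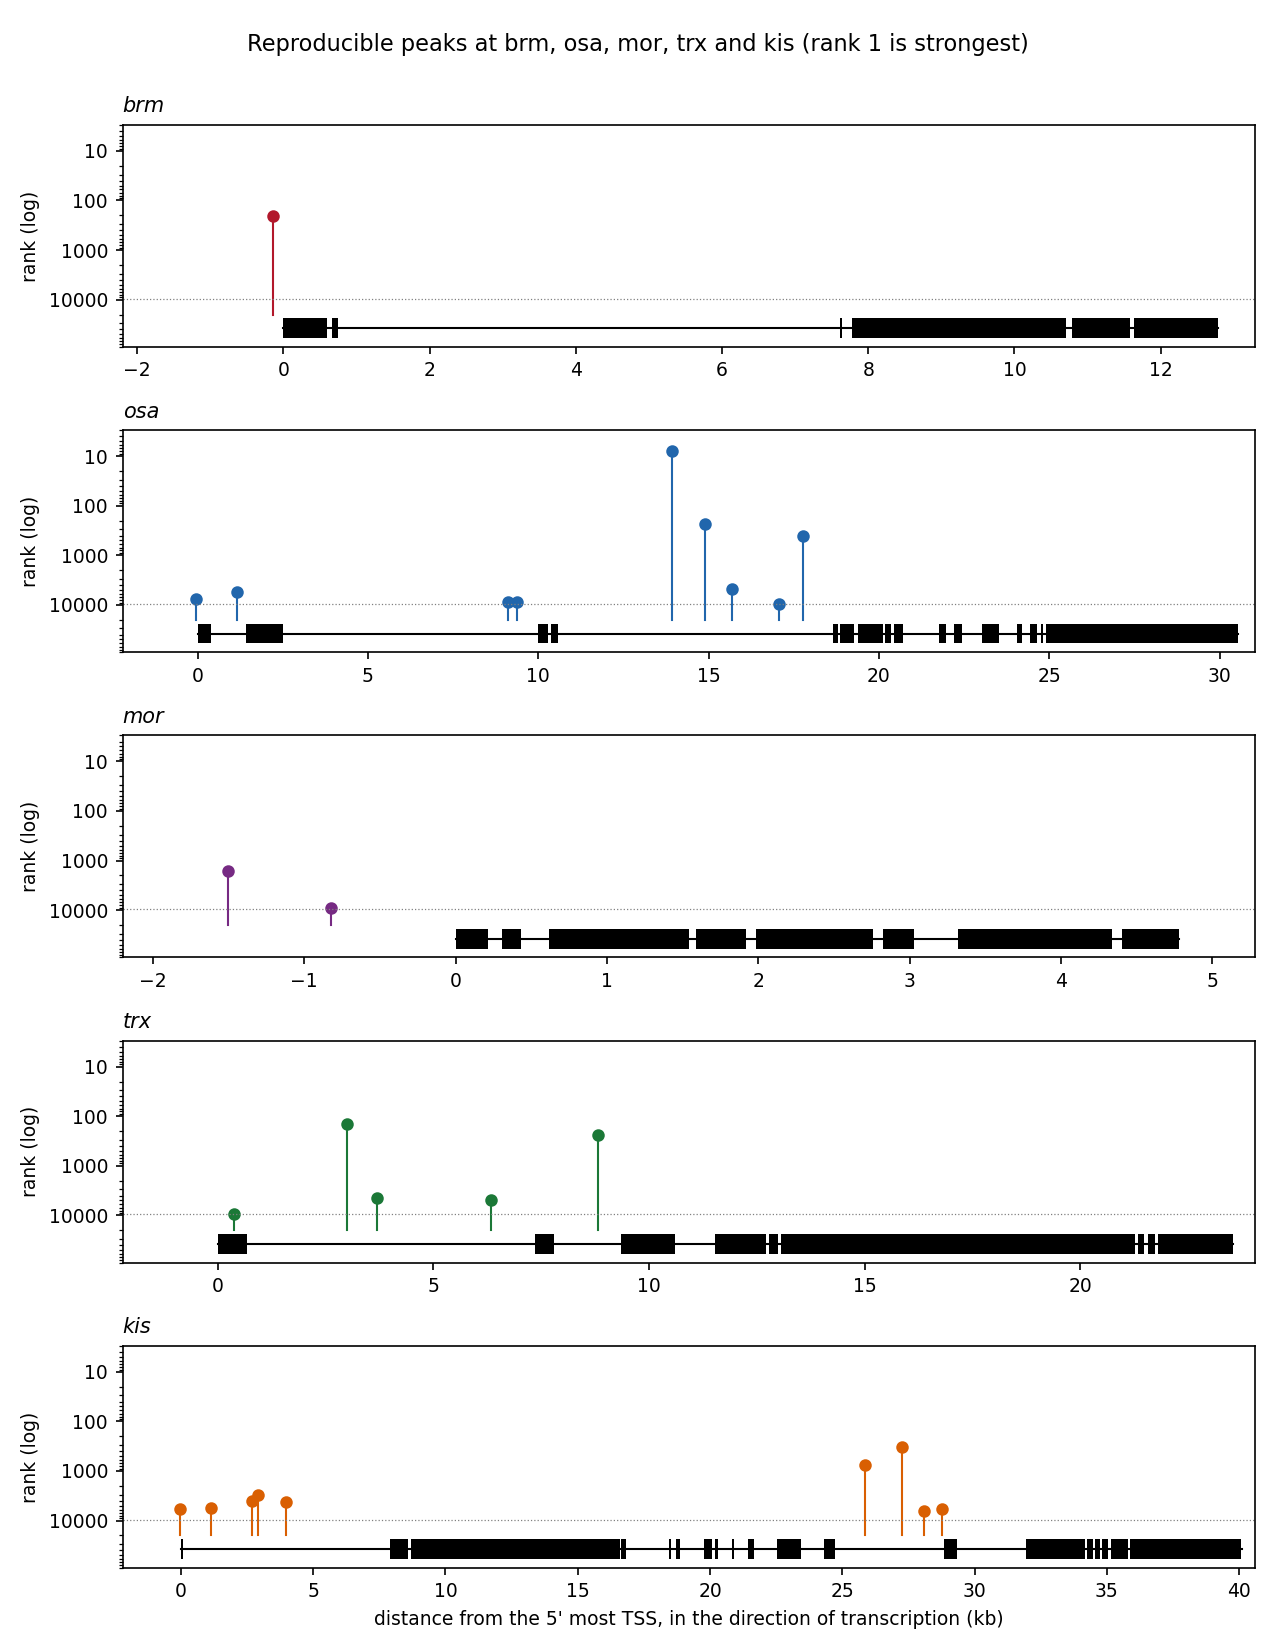
Peaks of the 5 bound genes by distance from the TSS furthest upstream (kb, in the direction of transcription), with the rank in the reproducible list on a log axis, rank 1 at the top; each stem is 1 peak, black boxes are exons of any transcript, the line through them is the gene, and the dotted line marks the last rank, 9569. The osa peak of rank 8 stands in the 8067 bp intron 4, the trx peaks of rank 141 and 239 stand in long introns, and the brm peak of rank 201 stands just upstream of its gene.

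Of trx, ash1 and ash2, the genes tied to histone methylation, trx alone had peaks. The gene trx (FBgn0003862, 3R, 14263358 to 14286903, minus strand) held 5, of which 4 were intronic in all 5 transcripts. The strongest, of rank 141, at 14283650 to 14284072, lay 3008 bp downstream of the TSS in intron 1, with ranks of 189, 145 and 119 (151 ± 35.4, SD, n = 3). A second, of rank 239, at 14277858 to 14278340, lay 8815 bp downstream, in intron 1 or 2 depending on the transcript, with ranks of 328, 154 and 260 (247 ± 87.7). All replicates thus placed both among their strongest 500 candidates.

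The other trx peaks were weaker and less even. The peak of rank 4474, 697 bp from the summit of the strongest, had ranks of 2296, 9330 and 3579 (5068 ± 3750), while that of rank 4930 had 4444, 5299 and 6010 (5251 ± 784). The peak nearest the TSS, 381 bp downstream in the non-coding part of the first exon, ranked 9505 of 9569. It ranked 18958, 8848 and 10969 in the replicates, so replicate 2 alone had it among its 9569 strongest candidates. Just outside the window, 1312 bp beyond it, a peak of rank 4996 lay 186 bp from a TSS of the neighbouring gene red, with ranks of 5670, 4928 and 4496.

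The windows of ash1 and ash2 held 0 reproducible peaks. At ash1 (FBgn0005386, 3L, 19590773 to 19598755, minus strand) no list held a candidate region in the window, although the second strongest peak of the whole genome bordered it. That peak, at 19590399 to 19590840, ranked 2, with 2, 5 and 1 in the replicates. Its summit lay 147 bp beyond the 3′ end of ash1 and 102 bp from the TSS of CG14100, and the region overlapped the last 68 bp of ash1. At ash2 (FBgn0000139, 3R, 24650125 to 24653376, plus strand) replicate 3 had 1 candidate region, of rank 3320, and replicates 1 and 2 had 0. The nearest reproducible peak to ash2, of rank 9396, was 21873 bp outside the window.

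The kis gene (FBgn0266557, 2L, 210735 to 250823, minus strand), the CHD-type remodeller, held 9 peaks, 8 of them intronic in every transcript over them. Its strong peaks lay far inside the gene, in an intron of up to 8486 bp that is number 11, 12 or 13 depending on the transcript. The strongest, of rank 331, at 223367 to 223705, had ranks of 320, 370 and 352 (347 ± 25.3, SD, n = 3). Its summit was 27263 bp downstream of the first TSS, but 1598 bp upstream of an internal kis TSS and 41 bp from the TSS of lncRNA:CR44222. Next to it, that of rank 760, at 224662 to 225144, lay 2987 bp upstream of the same internal kis TSS. It had ranks of 579, 925 and 784 (763 ± 174). In the same intron a peak of rank 5942, 94 bp upstream of the internal kis TSS, had ranks of 8580, 3244 and 10879 (7568 ± 3920), and one of rank 6497 had 6894, 6469 and 5177. By nearest summit, the replicate 3 candidate at the peak of rank 6497 ranked 15829.

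The first TSS of kis carried a peak in the weaker part of the reproducible list, 23 bp upstream and of rank 5761. It had ranks of 5301, 8286 and 4659 in the replicates (6082 ± 1940). By nearest summit its candidate in replicate 2 ranked 14671. Intron 1, of up to 8012 bp depending on the transcript, held 4 peaks between 1157 and 3974 bp downstream of that TSS. They were of rank 3117, 4123, 4264 and 5517. Those of rank 3117 and 4123 overlapped by 103 bp and shared their strongest candidate in every replicate (2652, 3331 and 2560). By nearest summit they still shared it in replicates 1 and 3, while replicate 2 had separate candidates of rank 3331 and 11452.

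**Figure D2:**
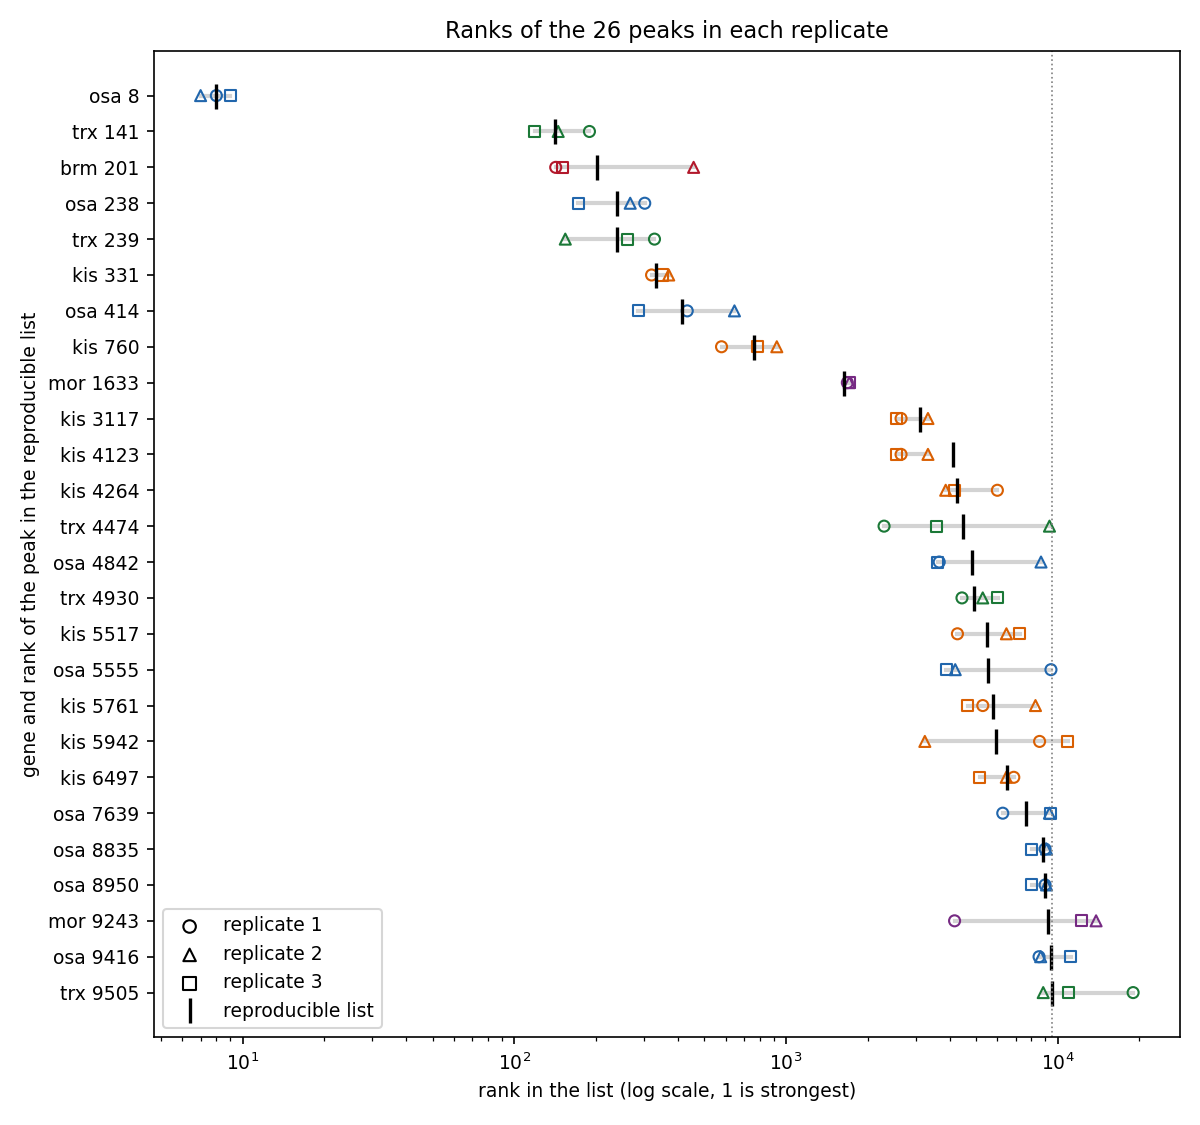
Rank of each of the 26 peaks in the candidate list of replicate 1 (circles), 2 (triangles) and 3 (squares) and in the reproducible list (black bars), on a log axis, with 1 row per peak named by its gene and rank; grey lines span the replicates and the dotted line marks rank 9569. As a ratio of highest to lowest rank, the replicates lie closest together for mor 1633 (1.02) and for osa 8835 and 8950 (1.13 each), with 1.29 for osa 8. Both values of 1.13 come from the same candidates, which osa 8835 and 8950 share in every replicate. By nearest summit osa 8835 ranks 8991, 12700 and 8020. The replicates spread most widely for trx 4474 (4.06), kis 5942 (3.35), mor 9243 (3.32) and brm 201 (3.22).

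The 26 peaks were spread over the reproducible list, with a larger share near its top than all peaks had. Of the 26, 7 were among the strongest 500 (26.9%, against 5.23% of all reproducible peaks) and 8 among the strongest 1000 (30.8%, against 10.5%). Among the strongest 4784 of the 9569 peaks were 13 of the 26. The median rank was 4658, against 4785 over all peaks, and 21 of the 26 had the highest deposited −log10 q-value, 4.23, which 88.1% of all peaks share. Every one of the 26 overlapped a candidate in all 3 replicates, and 22 (84.6%, against 72.8% of all peaks) overlapped 1 of the strongest 9569 candidates in all 3. Those that did not were osa 9416 and kis 5942, which did so in 2 replicates, and mor 9243 and trx 9505, which did so in 1. Both shares rest on an overlap of 1 bp or more. By nearest summit, osa 4842, 8835 and 8950 and kis 4123, 5761 and 6497 ranked past 9569 in 1 replicate each. The share of all peaks by nearest summit is not given here. All 3 replicates put osa 8 first. The order of neighbours among the next 6, trx 141, brm 201, osa 238, trx 239, kis 331 and osa 414, was not resolved. Each neighbouring pair kept its order in 2 of 3 replicates. In all 3 replicates, however, trx 141 ranked above osa 238, trx 239, kis 331 and osa 414. From osa 414 to kis 760, mor 1633 and kis 3117 the order held in 3 of 3.

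By position, 20 of the 26 summits lay in introns longer than 1 kb of the gene itself, 5 lay upstream, 1 lay in a non-coding part of an exon and 0 lay in coding exons. The intronic share in introns over 1 kb, 76.9%, stood against 48.5% of the peaks in the windows of all protein-coding genes. At the long genes osa, trx and kis it was 87.0% (20 of 23 peaks), against 76.7% for all genes of 20 to 50 kb. Of the 26 regions 14 had the same width of 436 bp, so positions were read from summits. Only 5 summits were within 500 bp of a TSS of their own gene, 2 of them at kis. At that distance 4 of the 8 genes (brm, osa, trx and kis) had a TSS peak, against 23.1% of protein-coding genes of any length. Within 250 bp of a TSS 3 did (brm, osa and kis), and within 1000 bp 5 did, with mor added. For these 2 distances and for single replicates no share over all genes is given, so those counts describe the 8 genes alone. Among the strongest 9569 candidates of single replicates, TSS candidates were found at 4 genes in replicate 1 (brm, osa, mor and kis), 4 in replicate 2 (brm, osa, trx and kis) and 5 in replicate 3 (brm, osa, mor, ash2 and kis), so brm, osa and kis were common to all.

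Gene length has to be read beside these counts, since long genes held more peaks. A peak in the window was found at 5 of the 8 genes, against 33.2% of all protein-coding genes, but the share of genes with a peak was 21.9% for windows up to 5 kb, 39.8% for 5 to 10 kb, 60.2% for 10 to 20 kb and 71.1% for 20 to 50 kb. Snr1, with the shortest window (3829 bp), and ash1 and ash2, in the class of 5 to 10 kb, had none, and mor had 2 in 6780 bp. All 3 genes of 20 to 50 kb, osa, trx and kis, had 5 peaks or more, which 23.5% of genes of that length had. As many as the 9 of osa and of kis were held by 6.94% of them. Per 10 kb of window the 8 genes together held 1.85 peaks (2.77 for osa, 2.95 for mor, 2.14 for kis, 1.96 for trx and 0.676 for brm), against 0.834 for all protein-coding genes and 0.928 for those of 20 to 50 kb.

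**Figure D3:**
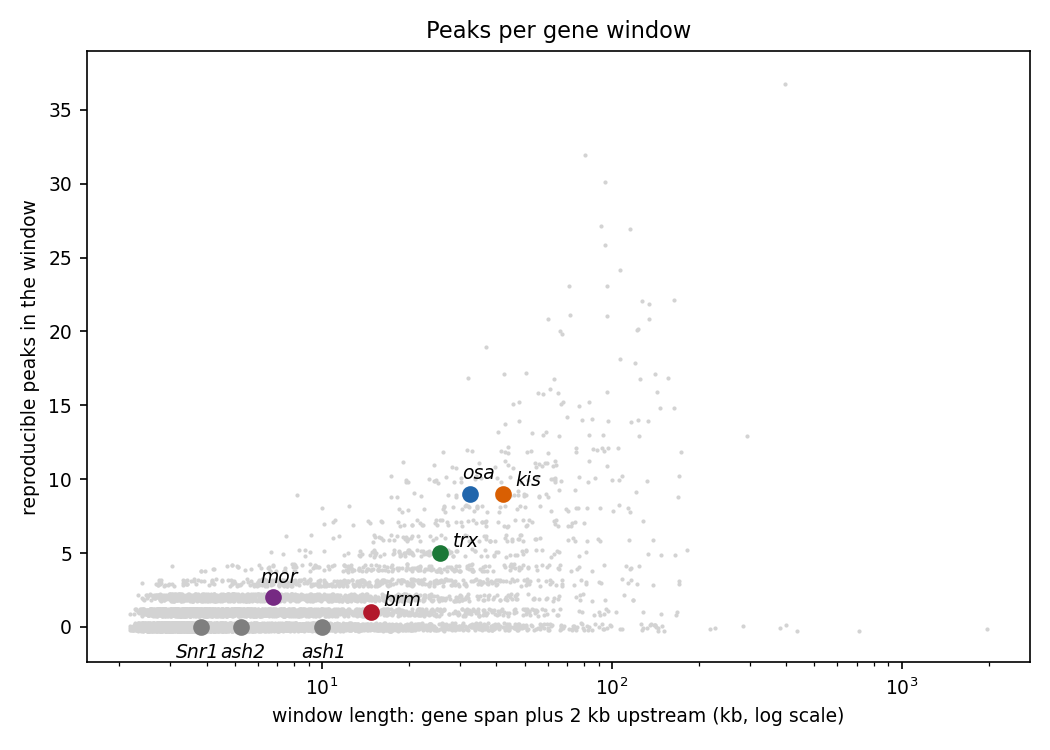
Number of reproducible peaks in each gene's window against the window length (kb, log axis), with the 8 genes as large named points and the other protein-coding genes as small grey points, spread slightly up and down so that they do not cover each other. The genes osa and kis lie at 9 peaks and trx at 5, where 23.5% of genes of 20 to 50 kb have 5 or more, and Snr1, ash1 and ash2 lie at 0 among the many short genes without a peak.

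Strong peaks were then set beside genes of the same length. A peak of the strongest 500 lay in the windows of 4 of the 8 genes (brm, osa, trx and kis), against 4.35% of all protein-coding genes. In the class of 20 to 50 kb all 3 had one, against 11.3% of genes, and brm had one in the class of 10 to 20 kb, against 8.88%. A peak as strong as its own best was held by 0.124% of genes of its length class for osa, which is osa itself, by 3.59% for trx, 3.81% for brm, 7.81% for kis and 12.5% for mor. These shares are descriptions of 1 map, and the genes were chosen with earlier results of these data known.

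Below the reproducible set, the pooled list held further candidate regions in the same windows, which are not calls. There were 11 at osa (ranks 9795 to 24298), 6 at trx, 3 at kis, 2 at mor and 0 at brm, Snr1, ash1 and ash2. These counts were not set beside those of all genes or scaled by window length, and kis, with 9 peaks, had fewer than trx, with 5.

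Other genes of the same complexes had peaks at about the share of all protein-coding genes, which was 33.2% for the window and 23.1% for a TSS. Of 9 other BAP and PBAP subunit genes, 3 had a peak in the window (33.3%) and 2 at a TSS (22.2%). The 3 were the actin gene Act5C (rank 202, with 160, 239 and 241 in the replicates), tth (2124) and e(y)3 (8369). The other 6, polybromo and Bap170 among them, had none. Of 13 COMPASS family genes, whose complexes methylate histone H3 lysine 4, 4 had a peak in the window and each of these had one at a TSS (30.8% for both), with the strongest peaks at Ncoa6 (1691), Ptip (2184), Rbbp5 (2569) and wds (8204), and trr and Set1, which encode the other methyltransferases of the family, had none. Window length differed between the lists: the 8 genes had a median of 12.4 kb, against medians of 5.39 kb and 8.49 kb in these lists and 4.17 kb over all genes.

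Of 19 other trithorax group and remodelling genes, 9 had a peak (47.4%) and 7 had one at a TSS (36.8%). The strongest was at Trl, the gene of GAGA factor, at rank 44 (45, 40 and 43 in the replicates), followed by Mi-2 at rank 95 (81, 141 and 89), Kdm2 at 652 and tna at 704. Of 18 Polycomb group genes 7 had a peak (38.9%) and 6 had one at a TSS (33.3%), with the strongest at ph-p (46), phol (64), Psc (84) and jing (404). Their median windows were 15.0 kb and 8.18 kb, in length classes where 60.2% and 39.8% of all genes had a peak, so neither share in the window was above that of genes of like length. A peak of the strongest 500 lay at 4 of the 8 genes described here, 2 of the 19 and 4 of the 18, against 4.35% of all protein-coding genes and 8.88% of those of 10 to 20 kb.

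Short motifs within 100 bp of the summit were searched on both strands. GAGAG, the core bound by GAGA factor, occurred in 11 of the 26 windows (42.3%, against 26.4% of all peaks), with the most matches in trx 9505 (7), mor 9243 (6) and osa 5555 (5). GTGTGT, the word bound by Combgap, occurred in 7 (26.9%, against 13.9%), and CACACACA, which contains its complement ACACAC, in 4 (15.4%, against 4.58%). GCCAT, the core of the Pho site, occurred in 7 (26.9%, against 25.7%) and the E-box CAGCTG in 3 (11.5%, against 8.45%). CACGTG, another E-box, was in 1 window (3.85%, against 1.9%) and CAGGTA, the Zelda word, in 1 (3.85%, against 3.87%), while motif 1, the M1BP site, was in 0 (against 0.732%). GAGAG was in 4 of the 9 windows ranked within the strongest 2000 and in 7 of the other 17. No share of all peaks split at that rank is given here, so these counts describe the 26 windows alone. Among the strongest peaks of each gene, trx 141 had 2 GAGAG matches and 1 CAGCTG match, kis 331 had 1 GAGAG and 1 GCCAT match, and osa 8 had 1 GCCAT match, 34 bp to the left of its summit on the plus strand. The brm 201 and mor 1633 windows had none of these motifs.

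CGATA, the word of BEAF-32, which is contained in the DNA replication-related element TATCGATA (DRE), stood out at 1 promoter. Over the 26 windows it occurred in 6 (23.1%, against 23.4% of all peaks), and the DRE in 1 (3.85%, against 1.85%). That 1 was the osa TSS window printed above, which held 8 CGATA matches, 2 of them within the DRE. No other of the 9569 peak windows held as many. A match is a run of letters and was not tested as a binding site.

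Base composition differed between the strong and weak peaks of these genes. The GC content of the 201 bp windows ran from 26.4% to 55.2% with a median of 35.8%, against 36.3% over all peaks. The 9 peaks among the strongest 2000 had a median of 31.3% and the other 17 a median of 39.3%, against 34.8% and 36.8% over all peaks split at the same rank. The ranges overlapped, from 26.4% to 46.3% (kis 760) for the 9 and from 30.3% to 55.2% for the 17. The lowest values were at osa 238 and osa 414 (26.4% each) and trx 239 (26.9%), all intronic, and the highest were at osa 5555 (55.2%) and osa 9416 (52.7%), both weak. The part of base composition in the ranks was not tested.

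**Figure D4:**
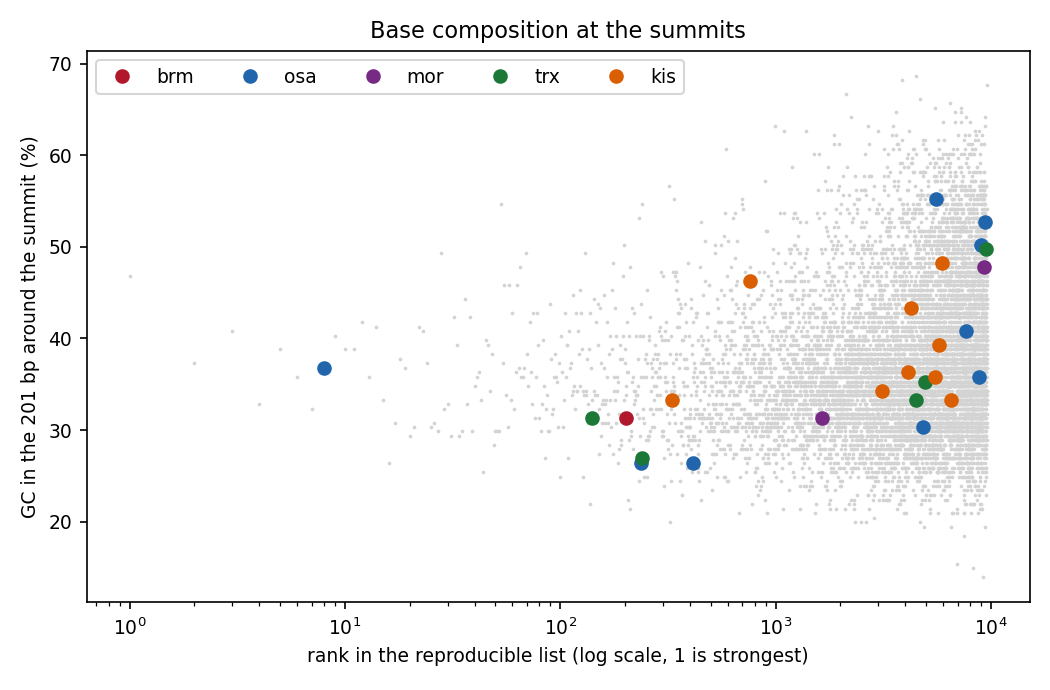
GC content (%) of the 201 bp around each reproducible summit against its rank (log axis), with the 26 peaks of brm, osa, mor, trx and kis in colour and all other peaks in grey. The coloured points of the strongest 500 peaks lie between 26.4% and 36.8%, while kis 760 lies at 46.3%. The highest, osa 5555 at 55.2%, lies among the weak peaks.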

How the data were processed

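Anti-GFP chromatin immunoprecipitation sequencing of 3 biological replicates was used as deposited region lists on dm6. Per the deposited provenance texts, candidates of each replicate and of the pooled replicates were derived from alignments and 1 control file, and the reproducible list was then cut by its irreproducible discovery rate (IDR). Aligner, caller and IDR threshold were not given in the sources used here. In each deposited list stand the authors' peak signal (scale likewise not stated), a −log10 q-value and the summit's offset from the region start. The signal was used only to rank within a list. All replicates share the control, so what it lacks or holds affects each of them alike. The dm3 lists were not used.

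Genes came from Ensembl release 115 and bases from RefSeq's copy of the dm6 genome. TSS peaks had a summit within 500 bp of any annotated start, and 1 peak can count for several genes. Named are all 8 genes, their TSS peaks, up to 6 of the strongest peaks each, the rest by range or value, and up to 4 genes of each other list; genes near a peak, unbound list members and motif counts singled out were chosen after their values were seen. The members, lists and motifs were chosen with earlier results of these data known. Names fsh and lid matched as fs(1)h and Kdm5, and calypso did not match. Alternatives covered the peak threshold, the position used, windows, overlap, nearest TSS, motif windows and each replicate left out. Counting was checked on planted summits. Python 3.11.15, numpy 2.4.6, pandas 2.3.3 and matplotlib 3.10.9 were used.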

Additional observations from a re-analysis of the deposited data

How the results depend on the processing

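Taking the 4784 strongest peaks left 13 of the 26 peaks in the windows, at the same number of genes (5), and 1 gene with a TSS peak (brm); this follows from the smaller list. Requiring support in the other 2 replicates left 22 to 24 peaks and 3 genes with a TSS peak, with trx lost each time and mor left with 1 peak. Counting a peak for its nearest TSS alone also left 3, with brm lost to Arl1. Upstream windows of 1 kb and 5 kb gave 25 and 29 peaks, and 5 kb added Snr1. The median over the 26 peaks of the mean replicate rank was 5160; it ran from 4311 to 5156 with a replicate left out and was 5403 with the candidate of nearest summit, which moved 6 peaks, all ranked 4123 or later. With an overlap of 50% of both lengths, 16 of the 26 matched strong candidates of all 3 replicates, in place of 22. The cause was not tested, and the share of all peaks under this overlap is not given here. GAGAG within 50 bp of the summit was in 5 windows (19.2%, against 12.7% of all peaks).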

Other observations

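The word CACAGTGG was looked at after it was seen among the strongest 500 peaks, which include 7 of these 26. It lay within 100 bp of the summit in 4 of the 26 windows, at kis 331, kis 760, trx 4930 and osa 8950 (15.4%), against 8.2% of the strongest 500 peaks and 3.89% of all peaks. Among the strongest 2000 peaks it was in 2 of 9 windows of these genes (22.2%, against 6.05%). Among later ranks it was in 2 of 17 (11.8%, against 3.32%). In windows of the same length 2 kb to the side it was in 1 of 26 for these genes (3.85%), and in 0.92% of flanks over all peaks. Within 50 bp of the summit it was in 1 of the 26, and the share of all peaks at that distance is not given here. The window of kis 331, printed above, held it on both strands, with the matches starting 87 bp to the left and 53 bp to the right of the summit.

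An inverted repeat with arms of 11 bp or more, at least 20 bp apart, lay in 2 of the 26 windows (7.69%), both among the strongest 500 peaks, of which 4.2% held one, against 2.26% of all peaks and 1.23% of their flanks. They were brm 201, with the arm GCGTTCAGCAC, and kis 331, with the arm GCACAGTGGAG, which contains the word above. The flanks of the 26 peaks held 0.

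Summits within 250 bp of the TSS of an annotated lncRNA gene, a distance chosen after the values were seen, were 3 of the 26 (11.5%), against 2.4% of the strongest 500 peaks and 1.72% of all peaks. They were osa 238 at 248 bp, osa 414 at 150 bp and kis 331 at 41 bp. The osa peak of rank 8 was 718 bp and kis 760 was 1430 bp from the nearest such TSS. Both trx peaks of comparable rank, 141 and 239, had no annotated TSS of another gene nearer than that of trx itself, 3008 and 8815 bp away.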
